A study of Homo sapiens with 16 samples.

Results

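The IFIT family of antiviral RNA binders was followed across 16 RNA-seq libraries of HEK293 cells, a permanent human line derived from embryonic kidney. The 4 members, IFIT1, IFIT2, IFIT3 and IFIT5, were chosen by symbol and matched by identifier to the deposited count table, where they are 4 of 60671 genes. The libraries form 8 groups of 2, numbered replicates 1 and 2 in the labels. In 6 groups the cells had been given a pcDNA3.0 plasmid with 1 cloned transcript (isoform) of LINC01016, a long non-coding RNA gene that the submitters describe as silent in this line. Their names are CU1, CU1ENC, CU1ENU, CU2, T1 and T2. The empty vector group carried the plasmid without an isoform and the parental group is labelled as the line itself. Per the labels' protocols, 5 µg of isoform plasmid was delivered with Lipofectamine 3000 to 60 mm plates, with RNA extracted 48 h later. The sources used here do not state the amount of empty plasmid or any mock treatment of parental cells. Transient plasmid expression in 1 cell line limits these groups as a model, and they do not say what sets the isoforms apart. Below, transfected cells means the 7 groups that received a plasmid, 14 libraries in all. LINC01016 lay between 2617 and 12165 CPM (counts scaled to library size) in the 12 isoform libraries, at 0 and 0.0613 CPM in empty vector cells and at 0 in both parental libraries. So no library went against its label as given an isoform or not. This level cannot tell 1 isoform from another, or empty vector from parental cells.

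Interferon is a secreted signal that cells make after sensing foreign nucleic acid, and its receptors act through STAT and IRF transcription factors on a short promoter element with repeated GAAA. The IFIT genes are among the classic targets of that element and can also be switched on directly by IRF3. Their proteins bind RNA whose start lacks the marks of host messenger RNA and block its translation. IFIT1 is the family's best studied binder of incompletely methylated caps, IFIT3 is its stabilising partner, IFIT2 forms complexes with both, and IFIT5 binds uncapped RNA on its own.

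All 4 members lie on the plus strand of chromosome 10 (GRCh38.p13). IFIT2 (ENSG00000119922) spans 89283694 to 89309271, IFIT3 (ENSG00000119917) 89327997 to 89340971, IFIT1 (ENSG00000185745) 89392546 to 89406487 and IFIT5 (ENSG00000152778) 89414568 to 89420997. Their promoters are shown because 3 of the 4 members moved together by similar amounts while IFIT5 moved less. RefSeq promoter windows (GRCh38.p14, 250 bases before to 50 after the start site) were matched for 3 of the 4 members, with 2 start sites for IFIT3. Capitals mark GAAANNGAAA, the core of the interferon-responsive element, searched on both strands. Every copy found reads as its reverse complement, TTTCNNTTTC. The sequences run 5′ to 3′ on the plus strand.
IFIT1, chr10:89392373-89392672: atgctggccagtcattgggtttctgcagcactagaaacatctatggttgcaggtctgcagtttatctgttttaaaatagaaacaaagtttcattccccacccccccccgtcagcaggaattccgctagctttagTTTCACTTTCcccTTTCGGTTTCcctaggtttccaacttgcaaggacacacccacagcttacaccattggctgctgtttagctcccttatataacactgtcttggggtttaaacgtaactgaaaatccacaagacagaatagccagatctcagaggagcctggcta
IFIT3, chr10:89327747-89328046: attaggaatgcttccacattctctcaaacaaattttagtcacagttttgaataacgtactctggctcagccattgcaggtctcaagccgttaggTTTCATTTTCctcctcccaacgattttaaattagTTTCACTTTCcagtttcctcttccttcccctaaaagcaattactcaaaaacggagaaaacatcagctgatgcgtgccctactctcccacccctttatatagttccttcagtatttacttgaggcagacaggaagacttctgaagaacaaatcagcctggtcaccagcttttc
IFIT3, second start site, chr10:89332279-89332578: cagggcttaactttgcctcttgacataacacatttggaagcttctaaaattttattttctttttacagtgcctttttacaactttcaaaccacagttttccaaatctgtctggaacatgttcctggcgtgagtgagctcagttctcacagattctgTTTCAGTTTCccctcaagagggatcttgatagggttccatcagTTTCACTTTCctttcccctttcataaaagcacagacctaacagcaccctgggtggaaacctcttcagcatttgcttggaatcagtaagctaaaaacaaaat
IFIT5, chr10:89414318-89414617: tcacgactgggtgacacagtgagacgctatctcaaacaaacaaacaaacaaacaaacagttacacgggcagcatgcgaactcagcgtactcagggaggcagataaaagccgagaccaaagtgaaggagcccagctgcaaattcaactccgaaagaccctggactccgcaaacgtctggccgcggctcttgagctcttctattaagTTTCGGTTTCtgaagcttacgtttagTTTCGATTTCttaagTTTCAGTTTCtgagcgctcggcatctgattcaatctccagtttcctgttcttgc
IFIT1 held 2 copies, whose first bases lie at -116 and -103 from the start site, and each IFIT3 window also held 2, at -156 and -122 and at -94 and -51. IFIT5 held 3 copies at -45, -19 and -4, closer to the start than those of IFIT1 and IFIT3. IFIT2 had no window, so its copies are not known, and a relation of copies to the size of change was not tested. Of 35116 RefSeq promoter windows of this length 3.57% held the motif, and 13 (0.0370%) held 3 or more copies that may overlap. The window of IFIT1B, the neighbouring family gene, held none. The longer form GAAANNGAAACT, each copy of which also counts as a copy of the short form, was found in each of the 4 windows shown and in 0.273% of all windows. A match here describes letters only.

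IFIT1 had 23.2 and 570 CPM in T1 cells (replicate 2, then replicate 1, here and below), 227 and 394 CPM in T2, 37.6 and 488 CPM in CU1 and 229 and 622 CPM in CU2. It had 37.7 and 372 CPM in CU1ENC cells, 56.6 and 311 CPM in CU1ENU, 78.7 and 212 CPM in empty vector cells and 12.9 and 9.12 CPM in parental cells. Each of the 14 transfected libraries was above both parental libraries, and in each transfected group replicate 1 was the higher library. IFIT3 had 13.7 and 351 CPM in T1 cells, 111 and 235 CPM in T2, 15.5 and 302 CPM in CU1 and 133 and 370 CPM in CU2. It had 19.0 and 235 CPM in CU1ENC cells, 26.8 and 184 CPM in CU1ENU, 41.4 and 122 CPM in empty vector cells and 8.04 and 5.51 CPM in parental cells. The pattern was that of IFIT1, with T1 and CU1 lowest in replicate 2 and T1 and CU2 highest in replicate 1.

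IFIT2 had 15.6 and 255 CPM in T1 cells, 77.2 and 150 CPM in T2, 15.7 and 238 CPM in CU1 and 101 and 319 CPM in CU2. It had 20.0 and 160 CPM in CU1ENC cells, 21.1 and 118 CPM in CU1ENU, 32.2 and 81.6 CPM in empty vector cells and 6.89 and 4.85 CPM in parental cells. Again no transfected library fell to the parental range. IFIT5 had 35.6 and 180 CPM in T1 cells, 124 and 158 CPM in T2, 48.3 and 174 CPM in CU1 and 112 and 174 CPM in CU2. It had 45.8 and 138 CPM in CU1ENC cells, 54.9 and 133 CPM in CU1ENU, 66.2 and 106 CPM in empty vector cells and 39.5 and 37.6 CPM in parental cells. IFIT5 had a higher parental level and spanned a narrower range, and 13 of its 14 transfected libraries were above both parental ones. T1 replicate 2 was the exception, below both. For comparison, 16.8% of the 19316 genes tested had all 14 transfected libraries above both parental libraries.

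**Figure D1:**
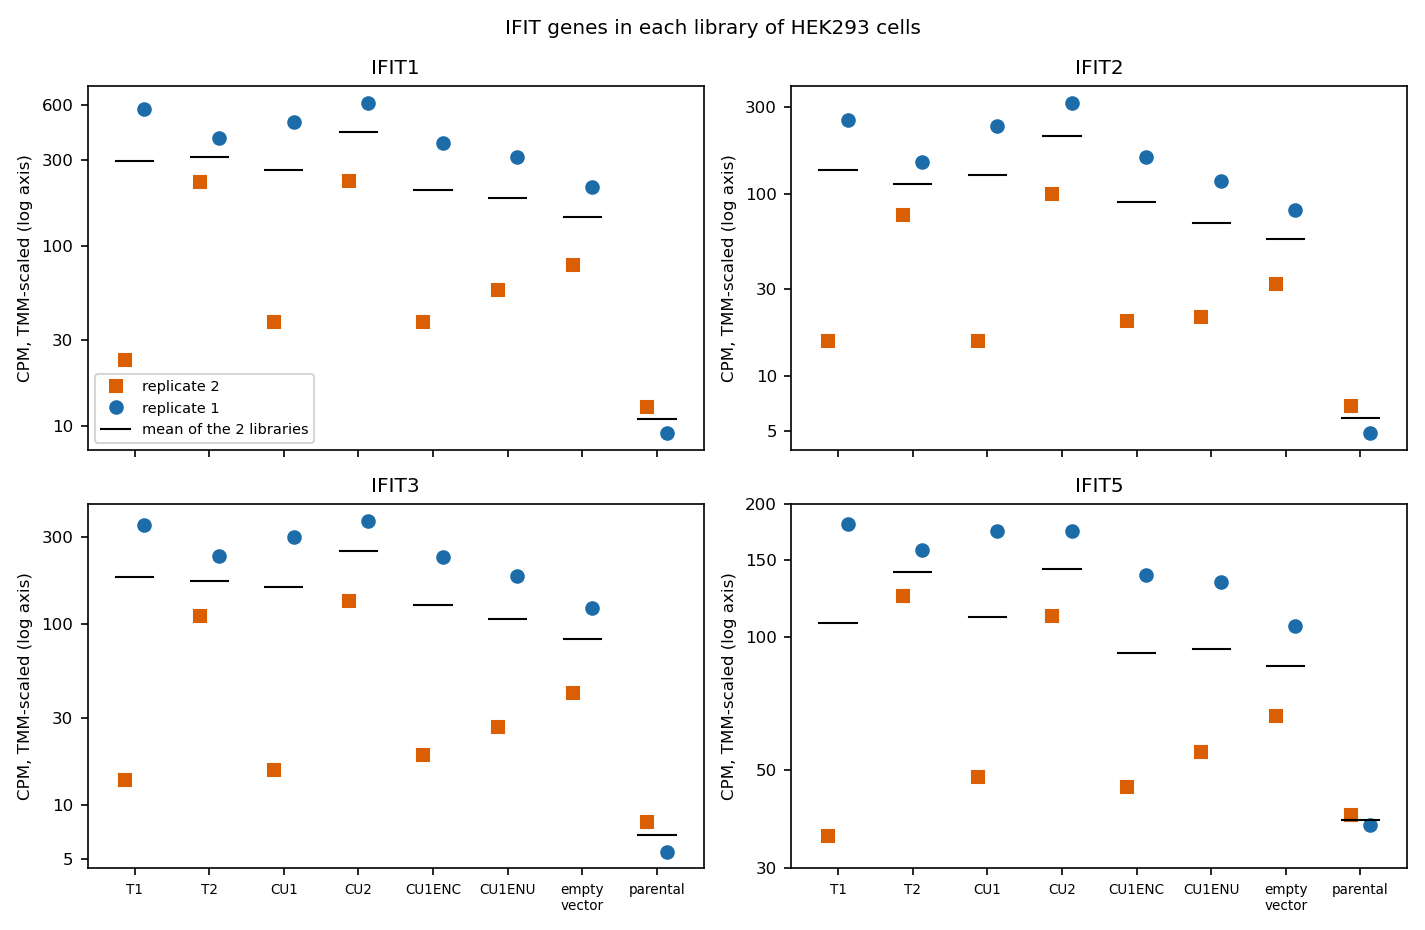
TMM-scaled CPM on log axes of the 4 IFIT genes in each library, by group, with replicate 2 as squares left of replicate 1 as circles and a line at the mean of the 2 libraries. Replicate 1 is the higher library in all 7 transfected groups, and IFIT1 reaches 622 CPM in CU2 cells against 12.9 CPM or less in parental cells.

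Library totals of 15040770 to 17255935 counts kept counting error small beside these differences. The lowest member count was 82 reads, for IFIT2 in parental replicate 1, with an exact Poisson 95% interval of 65.2 to 102 that covers counting error only. Chi-square per degree of freedom between the libraries of a group was 6.21 to 17.0, so neither was a repeat deposit of the other. Libraries of different groups were not compared in this way. Of 9 markers of HEK293 cells (keratins, neurofilaments, renal transcription factors and the like), 8 were at 10 CPM or more in every library, and PAX2 was below that. The summed level of 9 leukocyte markers was 3.76 to 6.83 CPM in transfected cells and 2.19 to 2.25 CPM in parental cells, with 6 of the 9 under 1 CPM in every library and none at 0 throughout. Of the 3 that could be tested in transfected against parental cells, CD14 passed as higher (log2 fold change 1.23 ± 0.28, SE, adjusted p 0.00431, edgeR), against 15.4% of genes. With the replicate number as a block ITGAM passed too (adjusted p 0.00729), against 23.1% of genes. The part of that rise in the results was not tested. In bulk RNA, more cells with IFIT transcripts and more transcripts per cell cannot be told apart, nor is the share of cells that took up plasmid known.

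Per length of exon, the order of the members differed between transfected and parental cells. The median over 7 transfected groups of replicate 1 was 92.7 CPM per kb for IFIT3, 85.3 for IFIT1, 39.3 for IFIT2 and 39.1 for IFIT5. In replicate 2 those medians were 13.6 CPM per kb for IFIT5, 12.3 for IFIT1, 10.6 for IFIT3 and 5.18 for IFIT2. In parental cells the level of IFIT5 was 9.82 and 9.34 CPM per kb (replicates 2 and 1), against 3.17 and 2.17 for IFIT3, 2.79 and 1.98 for IFIT1 and 1.69 and 1.19 for IFIT2. IFIT5 was thus the most abundant member per length in parental cells and the least abundant, by a small margin, in the replicate 1 transfected median.

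The empty vector comparison asks what the plasmid and its delivery alone went with. IFIT1 averaged 145 ± 94.1 CPM in empty vector cells and 11.0 ± 2.65 CPM in parental cells (SD, n = 2 each), IFIT3 81.9 ± 57.3 against 6.77 ± 1.79 CPM, IFIT2 56.9 ± 34.9 against 5.87 ± 1.44 CPM and IFIT5 86.0 ± 28.0 against 38.6 ± 1.34 CPM. The groups did not overlap for any of the 4, but the share of all genes that do so was not counted. With 2 against 2 libraries an exact permutation cannot give p below 0.333. The log2 fold changes were 3.73 ± 1.94 for IFIT1, 3.60 ± 2.12 for IFIT3, 3.28 ± 1.93 for IFIT2 and 1.16 ± 0.92 for IFIT5 (SE, edgeR quasi-likelihood test over all groups). Adjusted p ran from 0.241 to 0.450, so 0 of 4 passed at 0.05, against 9.41% of genes tested that passed as higher. None had an unadjusted p under 0.05 either, and DESeq2 without the block also called 0. With the replicate number as a block the adjusted p was 0.0736 for IFIT1, 0.0798 for IFIT2, 0.0946 for IFIT3 and 0.215 for IFIT5 (edgeR), with 0 of 4 passing against 18.4% of genes. DESeq2 with the block called 3 of 4, IFIT1 (adjusted p 0.0155), IFIT2 (0.0272) and IFIT3 (0.0396), against 7.48% of genes that passed as higher. A fit on these 4 libraries alone called IFIT5 (adjusted p 0.0216, edgeR).

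Over all 7 transfected groups against parental cells, the log2 fold change was 4.49 ± 1.84 for IFIT1 (adjusted p 0.105), 4.43 ± 2.00 for IFIT3 (0.136), 4.17 ± 1.79 for IFIT2 (0.120) and 1.49 ± 0.77 for IFIT5 (0.187; edgeR, SE). By that test 0 of 4 passed, against 15.4% of genes that passed as higher and 14.3% as lower. Unadjusted p was under 0.05 for IFIT1 and IFIT2. With the replicate block, 3 of 4 passed against 23.1% of genes. There IFIT1 rose by 4.13 ± 1.19 (adjusted p 0.0244), IFIT3 by 4.16 ± 1.25 (0.0291) and IFIT2 by 3.97 ± 1.07 (0.0184), and IFIT5 stood at 1.34 ± 0.48 (0.0573; edgeR, log2 scale, SE). DESeq2 without the block also called IFIT1, IFIT2 and IFIT3, at adjusted p of 0.000615, 0.00129 and 0.00173, against 7.46% of 38201 genes with any count. The labels do not say whether replicates were separate cultures, so the p-values cover no more than the spread among these libraries.

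Fold changes over the parental library of the same number show what the mean hides. In replicate 2, IFIT1 was a median 4.40-fold higher in transfected than in parental cells (range over the 7 groups 1.80 to 17.8), IFIT3 3.34-fold (1.70 to 16.5), IFIT2 3.06-fold (2.26 to 14.6) and IFIT5 1.39-fold (0.900 to 3.14). In replicate 1, IFIT1 was a median 43.2-fold higher (23.2 to 68.2), IFIT3 42.7-fold (22.2 to 67.2), IFIT2 33.0-fold (16.8 to 65.6) and IFIT5 4.19-fold (2.81 to 4.79). In replicate 2 the empty vector, T2 and CU2 libraries carried the higher folds, and the other 4 were lower. Within a number the parental arm is 1 library, which the test assumes to vary like the transfected libraries, and the spread comes from transfected libraries that received different plasmids. By that test 0 of 4 passed in replicate 2 (adjusted p 0.148 to 0.349 in edgeR, against 18.6% of genes higher, and none at an unadjusted p under 0.05). In replicate 1, 4 of 4 passed, against 17.1% of genes, and with no low-count filter 3 did, IFIT5 not among them (adjusted p 0.0590). IFIT1 rose there by 5.54 ± 1.65 (adjusted p 0.0212), IFIT3 by 5.54 ± 1.68 (0.0237), IFIT2 by 5.28 ± 1.55 (0.0201) and IFIT5 by 2.01 ± 0.64 (0.0301; edgeR, log2 scale, SE).

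A pass in one number and not in the other does not show a difference between them. The difference was itself tested, as the change from parental cells in replicate 2 minus that in replicate 1. It was -2.60 ± 2.15 for IFIT1, -2.87 ± 2.53 for IFIT3, -2.74 ± 2.46 for IFIT2 and -1.20 ± 0.85 for IFIT5 (log2, SE). Adjusted p ran from 0.842 to 0.878 in edgeR and 0 of 4 passed, with no unadjusted p under 0.05 and 0 calls in DESeq2. In all, 0.0259% of genes passed as lower and 1379 genes had an unadjusted p under 0.05. So the change from parental cells is not shown to differ between the numbers.

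**Figure D2:**
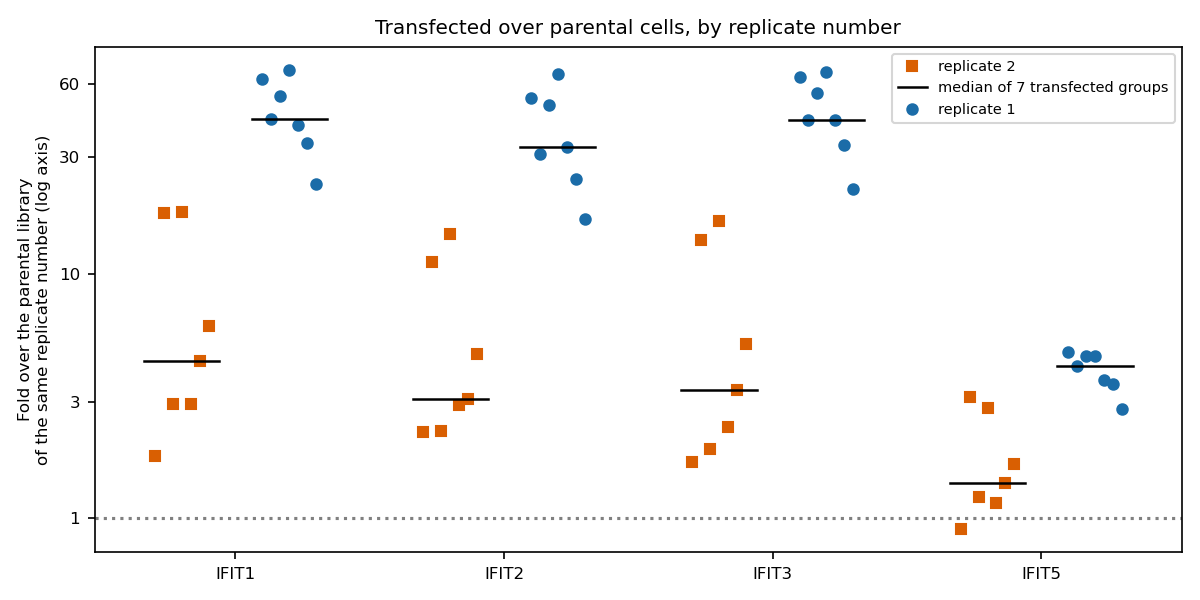
Fold of each transfected library over the parental library of the same replicate number, on a log axis, for 4 IFIT genes. Squares are replicate 2 and circles replicate 1, each in the order T1, T2, CU1, CU2, CU1ENC, CU1ENU, empty vector from left to right, with lines at the medians. IFIT1 has medians of 4.40 in replicate 2 and 43.2 in replicate 1, and IFIT5 of 1.39 and 4.19.

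Within transfected cells alone, replicate 2 was lower than replicate 1 for every member in 7 of 7 groups, which held for 12.3% of all genes. The mean difference was -2.53 ± 1.40 for IFIT1, -2.79 ± 1.45 for IFIT3, -2.49 ± 1.23 for IFIT2 and -1.25 ± 0.73 for IFIT5 (log2 CPM, SD, n = 7 groups). A two-sided exact sign-flip permutation test gave p = 0.0156 for each, the smallest 7 pairs allow, and 0.0156 after adjustment over the 4. It takes the 7 differences as independent, as does the edgeR test that follows. Over all genes, however, libraries of the same number correlated between groups (r 0.162 to 0.441). The 7 groups may thus repeat 1 difference between 2 runs, and neither test measures how far further replicates would vary. In edgeR, with group as a term, 4 of 4 fell, against 17.6% of 19103 genes. IFIT1 fell by 2.43 ± 0.54 (adjusted p 0.0141), IFIT3 by 2.62 ± 0.55 (0.0111), IFIT2 by 2.38 ± 0.46 (0.00797) and IFIT5 by 1.22 ± 0.27 (0.0148) on the log2 scale (SE). The gap was widest in T1, where IFIT1 was 24.6 times higher in replicate 1, and narrowest in T2, at 1.73 times. The parental pair differed the other way, with replicate 2 higher by 0.50 for IFIT1, 0.55 for IFIT3, 0.50 for IFIT2 and 0.07 for IFIT5 (log2, 1 library each). The ranges still touched. For IFIT1 the highest replicate 2 library, CU2, had 229 CPM and the lowest replicate 1 library, empty vector, 212 CPM, and the ranges of the other 3 members overlapped likewise.

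Comparing each isoform with the empty vector asks whether a transcript adds to the effect of the plasmid. The group means of IFIT1 ran from 426 ± 278 CPM in CU2 through 310 ± 118 in T2, 297 ± 387 in T1, 263 ± 318 in CU1, 205 ± 236 in CU1ENC and 184 ± 180 in CU1ENU to 145 ± 94.1 in empty vector cells (SD, n = 2 each). CU2 also had the highest mean of IFIT3, IFIT2 and IFIT5, at 251 ± 168, 210 ± 154 and 143 ± 44.2 CPM, and the empty vector the lowest transfected mean of each. For all 4 members, each neighbour in that order overlapped the next among the 7 transfected groups. Parental cells alone stood clear of their neighbour, the empty vector, with 2 libraries each and no count of all genes that do so. For IFIT5 they were not clear of T1, whose replicate 2 library (35.6 CPM) lay below both parental libraries (39.5 and 37.6 CPM). The largest of the 24 log2 fold changes over the empty vector was 1.88 ± 1.65, for IFIT2 in CU2, and the smallest 0.09 ± 0.89, for IFIT5 in CU1ENC (SE, edgeR). None of the 24 passed at 0.05 or had an unadjusted p under 0.05, and DESeq2 called 0. Among all genes 0.0104% passed as higher for T1, T2, CU1, CU1ENC and CU1ENU and 0.00518% for CU2, with 177 to 449 genes at an unadjusted p under 0.05. The mean of the 6 isoforms over the empty vector was 0.89 ± 1.37 for IFIT1, 0.97 ± 1.47 for IFIT3, 1.04 ± 1.34 for IFIT2 and 0.39 ± 0.70 for IFIT5 (log2, SE), again with 0 of 4 passing against 0.0104%. An F-test over the 7 transfected groups called 0 of 4 in edgeR and in DESeq2, against 0.00518% of genes in edgeR, and 97 genes had an unadjusted p under 0.05, no member among them. These results depended on the low-count filter. Without it edgeR called 3 members for T1, 4 for T2, 3 for CU1, 4 for CU2, 2 for CU1ENC and 0 for CU1ENU. It also called 4 for the mean of the isoforms and 4 in the F-test, against 0.00524% to 0.199% of genes over these comparisons.

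The direction depended on the replicate number. In replicate 2, only T2 and CU2 of the 6 isoforms were above the empty vector, for each of the 4 members. There the ratio for IFIT1 was 2.89 in T2 and 2.91 in CU2, but 0.295 in T1, 0.478 in CU1, 0.479 in CU1ENC and 0.719 in CU1ENU. In replicate 1 all 6 isoforms were above the empty vector for each member, with ratios of IFIT1 from 1.47 in CU1ENU to 2.94 in CU2. IFIT5 spanned 0.537 to 1.87 in replicate 2 and 1.26 to 1.70 in replicate 1. With an isoform's replicate 1 library left out, the log2 fold change of IFIT1 over the empty vector was -2.65 for T1, -1.95 for CU1, -1.94 for CU1ENC and -1.36 for CU1ENU. Those fits set 1 replicate 2 library against both empty vector libraries. They therefore mix the isoform with the gap between the numbers, which the ratios within replicate 2 do not. CU2 was the group whose replicates kept the most alike ratio for IFIT1, and it was highest in both numbers for the sum of the 4 members, at 574 CPM in replicate 2 and 1484 CPM in replicate 1. T1 took the lowest place of the 7 transfected groups in replicate 2 (88.0 CPM) and the next to highest in replicate 1 (1356 CPM).

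**Figure D3:**
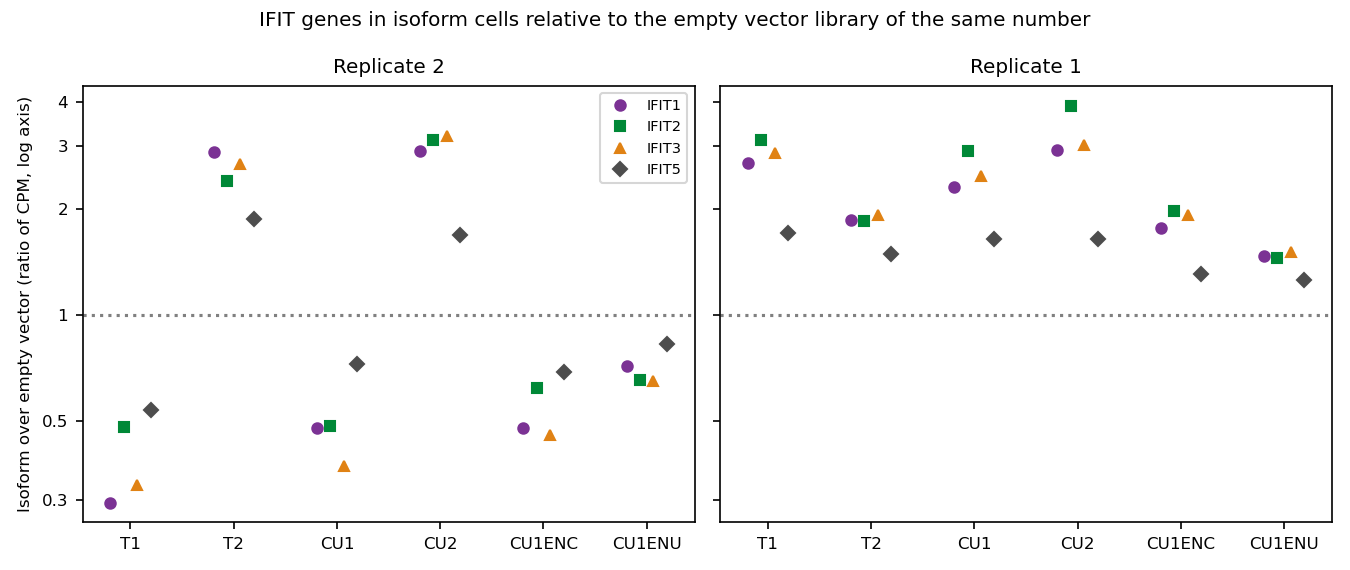
Ratio of CPM in each isoform library to the empty vector library of the same replicate number, on a log axis, for 4 IFIT genes, with replicate 2 on the left and replicate 1 on the right. In replicate 2 only T2 and CU2 lie above 1, and in replicate 1 all 6 isoforms do.

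The relation to LINC01016 itself was examined over the 6 isoform libraries of each number, 8 relations in all. In replicate 2 Pearson's r between log2 levels was -0.73 for IFIT1, -0.78 for IFIT3, -0.84 for IFIT2 and -0.71 for IFIT5, with exact permutation p of 0.0694, 0.0542, 0.0319 and 0.0986 (two-sided, adjusted over the 8: 0.185 to 0.197). Spearman's rho was -0.49 for IFIT1, IFIT2 and IFIT3 and -0.54 for IFIT5 (exact permutation p 0.356 and 0.297, adjusted 0.356). In replicate 1 r was -0.62, -0.59, -0.57 and -0.44 in the same order (exact permutation p 0.190 to 0.382, adjusted 0.268 to 0.382), and rho -0.71, -0.71, -0.60 and -0.60 (exact permutation p 0.136 to 0.242, adjusted 0.356). None held after adjustment. CU2 and CU1ENU were the libraries farthest from the median of LINC01016. Without them, over T1, T2, CU1 and CU1ENC, r was -0.93 to -0.95 in replicate 2 (exact permutation p 0.125 to 0.208). In replicate 1 it was 0.27 to 0.58 (exact permutation p 0.583 to 0.833), so the replicate 1 relation rests on those 2 libraries. In replicate 2 LINC01016 was at 6301, 6294 and 6686 CPM in T1, CU1 and CU1ENC and at 4825 CPM in T2, so r there leans on T2.

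Ratios between members do not depend on library scaling. IFIT1 over IFIT5 averaged 0.78 ± 0.81 in transfected cells (log2 ratio of counts, SD, n = 14) and -1.83 in parental cells (n = 2), a difference of 2.61. IFIT3 over IFIT5 differed by 2.46 and IFIT2 over IFIT5 by 2.32. For these 3 pairs 14 of 14 transfected libraries were above both parental libraries, with a two-sided exact permutation p of 0.0167, the smallest that 14 against 2 allow, and 0.0333 adjusted over the 6 pairs. That test exchanges libraries of both numbers freely. With labels exchanged inside each number alone, a test added after the data were seen, the exact permutation p was 0.0312 for each, the smallest its 64 arrangements allow, and 0.0625 adjusted over the 6, so none of the 3 passed. The difference was smaller in replicate 2 than in replicate 1, at 1.76 and 3.47 for IFIT1 over IFIT5, 1.45 and 3.47 for IFIT3 over IFIT5 and 1.48 and 3.16 for IFIT2 over IFIT5. The other 3 members kept nearer to each other. IFIT1 over IFIT2 differed by 0.29 (exact permutation p 0.15, adjusted 0.18), IFIT1 over IFIT3 by 0.15 (exact permutation p 0.133, adjusted 0.18) and IFIT2 over IFIT3 by -0.14 (exact permutation p 0.517, adjusted 0.517). Unequal ratios show unequal change, not which member moved.

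**Figure D4:**
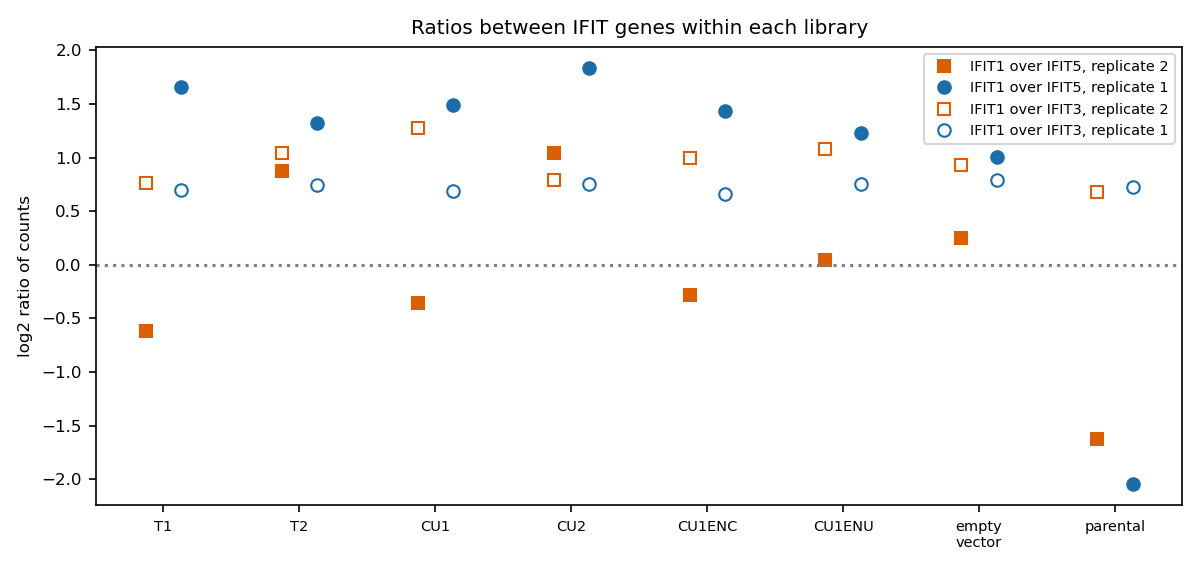
log2 ratio of counts of IFIT1 over IFIT5 (filled) and IFIT1 over IFIT3 (open) in each library, with replicate 2 as squares left of replicate 1 as circles. IFIT1 over IFIT5 averages 0.78 in transfected and -1.83 in parental cells, while IFIT1 over IFIT3 differs by 0.15.

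Over the 14 transfected libraries the members' log2 CPM followed each other closely, with Pearson's r from 0.980 for IFIT2 and IFIT5 to 0.997 for IFIT1 and IFIT3. Within replicate 2 alone it was 0.964 to 0.996, and within replicate 1 alone 0.938 to 0.998. These libraries share the gap between the numbers, so r is given as a description. Among 14529 genes with a mean log2 CPM of at least 1, those most like the mean of the 4 members were OAS1, IFIH1, RSAD2, RIGI and SP110 (r 0.999 for OAS1, 0.998 for IFIH1, RSAD2 and RIGI and 0.997 for SP110), where the median gene had -0.04. OAS1 makes the short RNA that activates RNase L, IFIH1 and RIGI encode sensors of foreign RNA, RSAD2 encodes viperin, and SP110 encodes a nuclear body protein. IFIT1 was most like OAS1, PARP12 and RIGI, IFIT3 like IFIH1, OAS1 and SP110, IFIT2 like USP18, RSAD2 and TRIM25, and IFIT5 like SAMHD1, OAS1 and PLSCR1. OAS1 had 3.41 to 109 CPM in transfected cells (median 36.9) and 0.592 to 1.71 CPM in parental cells.

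The rest of the pathway was read from lists of general knowledge, chosen with earlier results of these data known. Counts over the lists here and below are therefore descriptions and not independent evidence. Of interferon ligands and receptors, 8 of 11 could be tested in transfected against parental cells, 3 passed as higher and 1 as lower (edgeR, adjusted p under 0.05). With the replicate block 5 passed as higher and 2 as lower. Of all genes tested, 15.4% passed as higher and 14.3% as lower, and with the block 23.1% and 22.5%. IFNB1, the gene of interferon beta, was at 0 in both parental libraries and at 0.126 to 1.78 CPM in transfected ones (adjusted p 0.0269), with 152 reads over all libraries. IFNL1, an interferon lambda gene named here after its values were seen, was also at 0 in parental cells and at 0 to 1.11 CPM in transfected cells (adjusted p 0.0491). IFNLR1, a subunit of the lambda receptor, rose by 0.27 ± 0.08 (adjusted p 0.0215), and IFNAR1, a subunit of the type I receptor, fell by 0.22 ± 0.07 (0.0259; log2, SE). Of 13 nucleic acid sensors and adaptors, 1 passed as higher and 2 as lower, and with the block 4 and 3. These counts lie near the shares of all genes just given. Genes gained with the block include RIGI (adjusted p 0.147 without the block and 0.0315 with it) and IFIH1 (0.0949 and 0.0117; edgeR). CGAS, the sensor of cytosolic DNA, rose by 2.51 ± 0.37 (adjusted p 0.000222), and lay at 1.79 to 4.43 CPM in transfected and 0.237 to 0.731 CPM in parental cells. Its adaptor STING1 fell by 0.54 ± 0.11 (0.00272) and MAVS, the adaptor of the RNA sensors, by 0.44 ± 0.06 (0.000121). Between replicates 2 and 1 of transfected cells, where the IFIT genes fell, 7 of the 13 passed as lower and 0 as higher. Of 19103 genes, 3369 passed there as lower and 3337 as higher. RIGI stood at -1.81 ± 0.35 (adjusted p 0.00848), IFIH1 at -1.45 ± 0.29 (0.00956) and CGAS at 0.05 ± 0.16 (0.842; log2, SE, edgeR).

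Among 12 regulators of the IFIT genes, which are transcription factors, the kinases JAK1 and TYK2 and the feedback genes USP18 and SOCS1, IRF3 passed as higher, at 0.25 ± 0.06 (log2, SE, adjusted p 0.0102, edgeR), and none as lower. TYK2 and JAK1, kinases of the interferon receptors, stood at -0.27 ± 0.10 and -0.22 ± 0.08 and did not pass (adjusted p 0.0522 for JAK1, with that of TYK2 just above 0.05). With the replicate block both passed as lower (adjusted p 2.5e-05 for TYK2 and 0.000272 for JAK1), and 5 of the 12 passed as higher and 2 as lower. Shares of all genes passing as higher and lower were 15.4% and 14.3% without the block and 23.1% and 22.5% with it. In transfected cells 9 of the 12 fell in replicate 2 against replicate 1, where 17.6% of genes fell. The 30 other interferon-stimulated genes all had a positive log2 fold change over parental cells (median 3.06, lowest 0.73, highest 6.36), with a median of -0.00 over all genes tested. But 1 of the 30 passed, against 15.4% of genes. It was ZC3HAV1, an antiviral zinc finger gene, at 0.73 ± 0.15 (adjusted p 0.00240, edgeR). ISG15, a ubiquitin-like modifier, had 39.4 to 376 CPM in transfected and 9.65 to 10.3 CPM in parental cells, at 4.15 ± 1.48 (adjusted p 0.0688). MX1, an antiviral GTPase, had 6.96 to 81.4 CPM in transfected and 2.90 to 3.72 CPM in parental cells, at 3.49 ± 1.43 (adjusted p 0.105). With the replicate block 23 of the 30 passed as higher, ISG15 (adjusted p 0.00683) and MX1 (0.0217) among them, against 23.1% of genes. Tested within a number, 2 of the 30 passed in replicate 2, against 18.6% of genes, and 29 in replicate 1, against 17.1%. In the test of the difference between the numbers 0 of the 30 passed in edgeR, with a median of -1.93 (log2). Between replicates 2 and 1 of transfected cells all 30 fell (median -2.09), against 17.6% of genes, as the IFIT genes did. Of the 26 with a RefSeq promoter window, 18 (69.2%) held GAAANNGAAA.

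Genes that act at the start of an RNA, where IFIT proteins bind, were counted in the same test, in which 15.4% of all genes passed as higher and 14.3% as lower. Of 11 cap and RNA end enzymes, 2 passed as higher and 2 as lower, with a median log2 fold change of 0.02. DXO, which removes faulty caps, rose by 0.40 ± 0.08 (adjusted p 0.00127), and CMTR1, which adds the cap methyl mark whose absence IFIT1 recognises, by 0.33 ± 0.11 (0.0360). PCIF1, which methylates the cap-adjacent adenosine, fell by 0.38 ± 0.08 (0.00242), as did NUDT2, named here after its values were seen, by 0.42 ± 0.14 (0.0363; log2, SE, edgeR). Of 13 eIF3 subunits, the translation factor to which IFIT1 and IFIT2 bind, 5 passed as higher and 3 as lower (median 0.15). EIF3D rose by 0.48 ± 0.07 (adjusted p 0.000321), while EIF3L fell by 0.44 ± 0.06 (0.000138) and EIF3E by 0.44 ± 0.07 (0.000288). Of 5 endothelial and fibroblast markers tested, LUM, KDR and PDGFRA passed as lower. VWF stood at 0.46 ± 0.37 (adjusted p 0.387) and COL1A1 at 0.22 ± 0.12 (0.190; log2, SE, edgeR). With the replicate block COL1A1 passed as higher (adjusted p 0.0166, edgeR). The list's summed level was 44.7 to 58.1 CPM in transfected and 50.8 to 54.0 CPM in parental cells. COL1A1 alone had 35.8 to 51.5 CPM in transfected and 36.8 to 40.5 CPM in parental cells.

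Around the cluster, 20 annotated genes start within 250000 bases of it, 16 of them no members. IFIT1B, between IFIT3 and IFIT1, had 2 reads in T1 replicate 1, 2 in T2 replicate 1, 1 in CU2 replicate 2 and 0 in the other libraries, and the pseudogene IFIT6P had 0 throughout. A count of 0 allows up to 3 reads in a library (a one-sided limit, where the interval given for IFIT2 is two-sided). LIPA, the gene of lysosomal acid lipase on the opposite strand, fell by 0.44 ± 0.09 in transfected against parental cells (log2, SE, adjusted p 0.00264, edgeR) and fell in each number. PANK1, a pantothenate kinase gene, fell by 0.53 ± 0.10 (adjusted p 0.00162). SLC16A12, next to IFIT5, stood at 0.33 ± 0.28 (adjusted p 0.400), with 0.75 ± 0.26 in replicate 1 (0.0215) and -0.11 ± 0.25 in replicate 2 (0.765). The neighbour ENSG00000235100 stood at -0.10 ± 0.42 (adjusted p 0.889). Exons of IFIT2 share 356 bases (8.74%) with ENSG00000232110 on the same strand, which had 21 reads in all, and 65 bases (1.60%) with LIPA on the other, and with the options recorded in the header a read lying in 2 genes of the same strand is counted for neither. In GENCODE 29 transcripts no stretch of 100 bases of IFIT1, IFIT3 or IFIT5 occurs in another gene, against 6.27% of those of IFIT2, all shared with the overlapping AL353751.1. At 50 bases IFIT1 shares 1.02%, led by IFIT1B, IFIT3 2.48% and IFIT5 none.

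**Figure D5:**
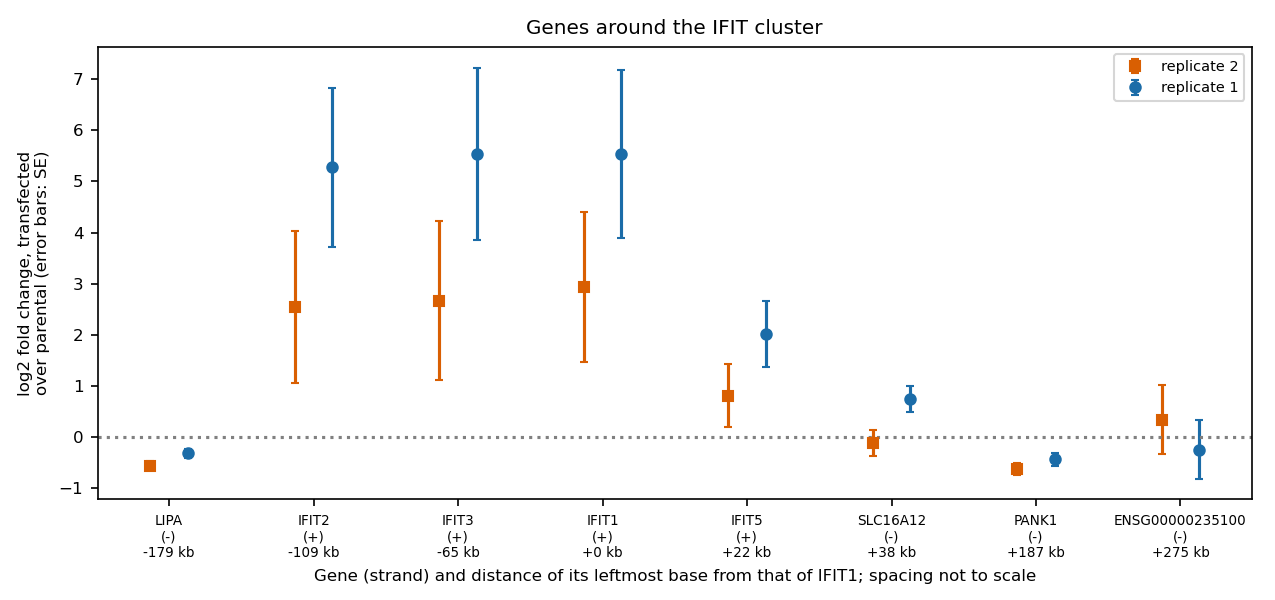
log2 fold change of transfected over parental cells (edgeR, error bars SE) for the 8 tested genes around the IFIT cluster in chromosome order, with replicate 2 as squares left of replicate 1 as circles. The 4 IFIT genes lie between 2.01 and 5.54 in replicate 1, and LIPA and PANK1 lie below 0 in both numbers.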

How the data were processed

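RNA-seq counts of 16 HEK293 libraries were analysed. The authors deposited whole-number counts per gene, made per the file headers by featureCounts 2.0.1 from paired reads (strand option 2) assigned to the exons of each gene of Ensembl release 101. The recorded options include none for reads that fit several places or several genes. Per the submitters' processing notes, HISAT2 and DESeq2 were used and the build was GRCh38.p13, with versions not given in the sources used here. No column was without a sample (0 columns).

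Totals were 15040770 to 17255935 counts. Genes kept by filterByExpr (minimum count 10, minimum total 15), 19316 in all, were TMM-scaled (factors 0.974 to 1.03) and tested with edgeR 4.0.16 quasi-likelihood F-tests (R 4.3.3) over 8 group means, with 8 residual degrees of freedom. Fits within a replicate number used terms for number and plasmid (12 degrees of freedom), and the comparison of numbers used 14 transfected libraries with group as a term (6). Passing means a Benjamini-Hochberg adjusted p under 0.05. The SE is the absolute log2 fold change over the square root of F, and so approximate. CPM are TMM-scaled. With 2 against 2 libraries an exact permutation of 1 gene cannot give p below 0.333, so those calls lean on the spread that the model shares across genes.

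With group means removed, libraries of the same number correlated in each of the 28 pairs of groups (r 0.162 to 0.441, median 0.248), so the numbers were taken to pair libraries. That comes from the data, since no label says what a number marks. Values with the block stand beside counts of members and of listed genes that it moves by over 1.5 times. They also stand beside named genes whose adjusted p is given and whose call it changes. In transfected against parental cells OAS1, RSAD2, SP110, USP18, SAMHD1 and PLSCR1, named for their likeness, passed with the block but not without it. Alternatives were the block, RLE size factors, no low-count filter, DESeq2 1.42.0 with and without the block, only the groups compared, and leaving out each library.

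Members and gene lists were chosen with earlier results of these data known. Named genes were the members, for each other list the 3 of lowest p in transfected against parental cells, called genes near the cluster and the genes most like the members (Pearson's r over 14 libraries). Symbols were given to 60401 of 60671 identifiers from the supplied gene names.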

Additional observations from a re-analysis of the deposited data

How the results depend on the processing

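No setting turned the sign of a member's change from parental cells or between replicates, and leaving out a library left 0 of 4 members passing for the empty vector, for the 7 transfected groups together and within replicate 2 against parental cells. It left 4 of 4 within replicate 1 and between replicates. Counts of members passing did change. Empty vector against parental cells had 3 with DESeq2 and the replicate block, 4 with no low-count filter and 1 with only the groups compared. Of all genes, 13.8%, 8.85% and 16.7% passed there in either direction. The 7 transfected groups against parental cells had 3 with the replicate block, 3 with DESeq2, 4 with DESeq2 and the block and 4 with no filter. In the same order, 45.7%, 13.8%, 19.5% and 15.4% of all genes passed in either direction. Within replicate 1 it was 3 with no filter (15.6% of all genes), where IFIT5 lost its call, and 4 with it (32.4%). Against the empty vector with no filter, 3 passed for T1 (0.0838% of all genes did), 4 for T2 (0.0916%), 3 for CU1 (0.0445%), 4 for CU2 (0.191%), 2 for CU1ENC (0.0183%), 4 for the mean of isoforms (0.0890%) and 4 in the F-test (0.199%), where the fit with the filter had 0. The SE of IFIT2 in empty vector against parental cells was 0.15 with no filter and 1.93 with it, on the same counts. Leaving out a library in turn, log2 fold changes over the empty vector of IFIT1, IFIT2, IFIT3 and IFIT5 ran from -2.65 to 1.97, -1.87 to 2.17, -2.58 to 2.14 and -1.27 to 1.07 for T1, from -1.95 to 1.75, -1.86 to 2.06, -2.40 to 1.94 and -0.83 to 1.02 for CU1, from -1.94 to 1.38, -1.51 to 1.49, -2.11 to 1.61 and -0.91 to 0.68 for CU1ENC, and from -1.36 to 1.22, -1.43 to 1.11, -1.60 to 1.35 and -0.64 to 0.63 for CU1ENU. The lower ends lack that isoform's replicate 1, so they set its replicate 2 against both empty vector libraries and include the gap between the numbers. Without empty vector replicate 2, which mixes the numbers likewise, all 4 members were also below the empty vector in CU1ENU, and IFIT1 and IFIT5 in CU1ENC. With DESeq2 and the replicate block CU1ENC gave -0.057 for IFIT1, -0.018 for IFIT3 and -0.061 for IFIT5, and CU1ENU -0.077 for IFIT2 and -0.057 for IFIT3. With the replicate block in edgeR CU1ENC gave -0.031 for IFIT5, and the block in edgeR changed no other call of a member than the 3 given. The ratios to IFIT5 gave differences of 1.76 in replicate 2 and 3.47 in replicate 1 for IFIT1, 1.48 and 3.16 for IFIT2 and 1.45 and 3.47 for IFIT3. The differences over all libraries, 2.61, 2.32 and 2.46, passed with labels permuted over all of them (adjusted exact permutation p 0.0333) but not inside each number (0.0625, added after the data were seen). Without CU2 and CU1ENU, r with LINC01016 was -0.94 for IFIT2 in replicate 2 (exact permutation p 0.208). In replicate 1 it was 0.32 for IFIT1, 0.58 for IFIT2, 0.38 for IFIT3 and 0.27 for IFIT5. The difference of changes between numbers could not be fitted without a parental library, since each number has 1. Between the 2 libraries of a transfected group, levels differed 1.73 to 24.6 times for IFIT1, 1.95 to 16.4 for IFIT2, 2.13 to 25.7 for IFIT3 and 1.27 to 5.06 for IFIT5, and the smallest isoform effect that could be detected was not measured.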
